A study of Mus musculus with 28 samples.

Results

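Prostanoids are signalling lipids made from arachidonic acid, and the genes that make, inactivate and sense them were followed here in mouse tail tendon. The members were 10 genes of 25719 in the count tables: the synthesis enzymes Ptgs1, Ptgs2, Ptges and Ptgis, the inactivating enzyme Hpgd, and the receptors Ptger1, Ptger2, Ptger3, Ptger4 and Ptgfr. They were named as the prostanoid enzyme and receptor genes after Ptger2 had been seen to be higher in established Fosl2(Tg) tendon, so they were selected on the genotype difference in the established cohort, which is given for them as a description. All 10 were found in the tables by their gene identifiers.

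Each of the 28 libraries was made from the tail tendon fascicles of 1 mouse on the C57BL/6 background, as a homogenate of the whole tissue. There were 7 non-transgenic control (WT) and 8 Fosl2(Tg) mice of the early phenotype stage, aged 6 to 8 weeks, and 6 WT and 7 Fosl2(Tg) mice of the established stage, older than 14 weeks. The transgene is murine Fosl2, which encodes an AP-1 transcription factor, driven by the promoter of the major histocompatibility complex class I gene H2Kb and inserted at random, so it is not limited to tendon cells, and it also carries eGFP. The early cohort held 15 males and no female, and the established cohort 11 females and 2 males (1 WT and 1 Fosl2(Tg)), so stage and sex cannot be told apart. Library totals ranged from 9645598 to 66894396 counts. Counts do not tell the transgene from the endogenous gene, and Fosl2 ranged from 78.1 to 169 CPM (TMM-scaled counts relative to library size) in established WT and from 121 to 160 in established Fosl2(Tg) mice, which overlap, and its difference did not pass the test in either cohort (edgeR, FDR = 0.918 early and 0.141 established). None of the 10 tendon fibroblast markers, Scx and Tnmd among them, was at 0 in all mice. In bulk tissue, fewer cells of a type and less RNA per cell cannot be told apart.

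As background, cyclooxygenases turn arachidonic acid into the unstable prostaglandin H2, which dedicated synthases turn into prostaglandin E2, prostacyclin and other prostanoids. Prostaglandin E2 is sensed by the EP receptors: EP2 and EP4 raise cyclic AMP through Gs, EP3 mostly lowers it through Gi, and EP1 raises intracellular calcium. In tendon, prostaglandin E2 is known as a mediator released on mechanical loading and inflammation.

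Among the synthesis enzymes followed, Ptgis, the prostacyclin synthase gene, had the most RNA per kb of exon. In established Fosl2(Tg) mice, 2 of 10 members, Ptger2 and Ptger4, were higher without overlap, beside 1.48% of genes. That contrast chose the members, so this is a description. Ptger2 (EP2) was higher by a log2 fold change of 2.23, from a level near the counting limit, and Ptger4 (EP4) by 0.44, while the other 8 members had ranges that overlapped between the genotypes in both cohorts. In the early cohort, 0 of 8 members tested passed. Of the neighbouring genes, the prostaglandin transporter Slco2a1 was lower and the leukotriene genes Alox5ap and Lta4h were higher in established Fosl2(Tg) tendon. Each of these calls was lost among females, with FDR from 0.0565 to 0.0638. The log2 fold changes there were 0.65 for Alox5ap, 0.30 for Lta4h and -0.50 for Slco2a1. Calls over the whole table went from 1032 to 560 among females. The Slco2a1 call was also lost without the scaling factors.

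Levels of different genes were compared as CPM per kb of merged exon length. In established WT tendon, Ptgis, which makes prostacyclin, stood first at 109 ± 18.4 CPM per kb (SD, n = 6). A second tier held Ptger1 (14.4 ± 0.614), Ptges (12.2 ± 2.46), Ptgfr (9.71 ± 1.42) and Hpgd (8.38 ± 1.82), and neighbours within it overlapped between mice. A lower tier of Ptgs1 (2.11 ± 0.508), Ptger4 (1.70 ± 0.145) and Ptgs2 (0.895 ± 0.906) also overlapped from neighbour to neighbour. Ptger3 (0.150 ± 0.0563) and Ptger2 (0.0731 ± 0.0228) were lowest. Both cyclooxygenase genes lay below the synthases that use their product, and the EP2 receptor lay at the foot of the list. Gaps without overlap separated the tiers in the early WT and early Fosl2(Tg) mice as well, with a changed order inside tiers. In established Fosl2(Tg) mice the mean of Ptger2 per kb was 0.334 ± 0.144 (n = 7), now above Ptger3 at 0.130 ± 0.0548, although their ranges touched. When the longest transcript replaced the merged exons, 6 of 10 members kept their rank, and the exchanges were between Hpgd and Ptgfr and between Ptger4 and Ptgs1.

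**Figure D1:**
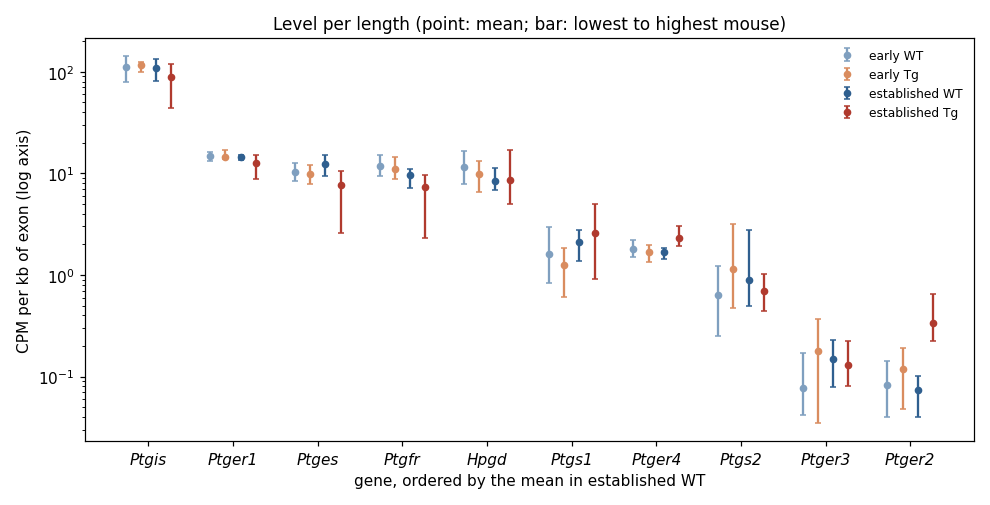
Level per length of the 10 genes, in CPM per kb of exon on a log axis, with points for group means and bars from the lowest to the highest mouse in each of the 4 groups. Ptgis stands alone at the top (108.9 CPM per kb in established WT), and established Fosl2(Tg) Ptger2 lies above the bars of its 3 other groups.

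Ptgs1 encodes the mostly constitutive cyclooxygenase COX-1 (chr2:36120438-36142287, + strand, GRCm39). Its CPM in early mice had a lowest value, median and highest value of 3.27, 6.26 and 11.5 in WT and 2.34, 4.71 and 7.12 in Fosl2(Tg). In established mice these were 5.31, 8.31 and 10.9 in WT and 3.54, 10.2 and 19.2 in Fosl2(Tg). The Fosl2(Tg) mice covered the whole WT range, and the log2 fold change was 0.30 ± 0.30 (SE).

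Ptgs2 encodes the inducible cyclooxygenase COX-2 (chr1:149975194-149983978, + strand). Early WT mice ran from 1.30 to 6.34 CPM (median 3.47) and early Fosl2(Tg) mice from 2.45 to 16.2 (median 3.65), with replicates 4 and 5 at 16.2 and 10.8 and the other 6 at most at 4.32. Established WT mice ran from 2.51 to 14.04 (median 2.60) and established Fosl2(Tg) mice from 2.27 to 5.25 (median 3.76). A single mouse, established WT replicate 2 at 14.04 CPM and 507 counts, stood far from the other 5, which lay between 2.51 and 3.22. With it the log2 fold change was -0.36 ± 0.41, and without it the sign turned to 0.41 ± 0.19.

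Ptges encodes microsomal prostaglandin E synthase (chr2:30779483-30820196, - strand). Established WT mice had 41.8, 55.4 and 66.6 CPM as lowest, median and highest, and established Fosl2(Tg) mice 11.5, 35.8 and 46.2. Its log2 fold change, -0.66 ± 0.24, was the most negative among the members. Without Fosl2(Tg) replicate 5, the mouse at 11.5, it was -0.51 ± 0.15. In early mice the ranges were 36.6 to 56.1 in WT and 34.3 to 52.6 in Fosl2(Tg).

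Ptgis (chr2:167033725-167083018, - strand) ran from 289 to 477 CPM in established WT (median 384) and from 155 to 428 in established Fosl2(Tg) mice (median 335). The log2 fold change was -0.30 ± 0.20, and -0.18 ± 0.14 without Fosl2(Tg) replicate 5, which was lowest here too. The early groups overlapped closely, at 281 to 508 in WT and 353 to 442 in Fosl2(Tg).

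Hpgd encodes the 15-hydroxyprostaglandin dehydrogenase that begins the inactivation of prostaglandins (chr8:56747543-56774082, + strand). Established WT mice ran from 21.2 to 34.8 CPM (median 23.5) and established Fosl2(Tg) mice from 15.5 to 52.8 (median 22.6). The highest was again Fosl2(Tg) replicate 5, at 52.8 against at most 30.1 in the other 6. The log2 fold change was 0.05 ± 0.25 with that mouse and -0.21 ± 0.17 without it.

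**Figure D2:**
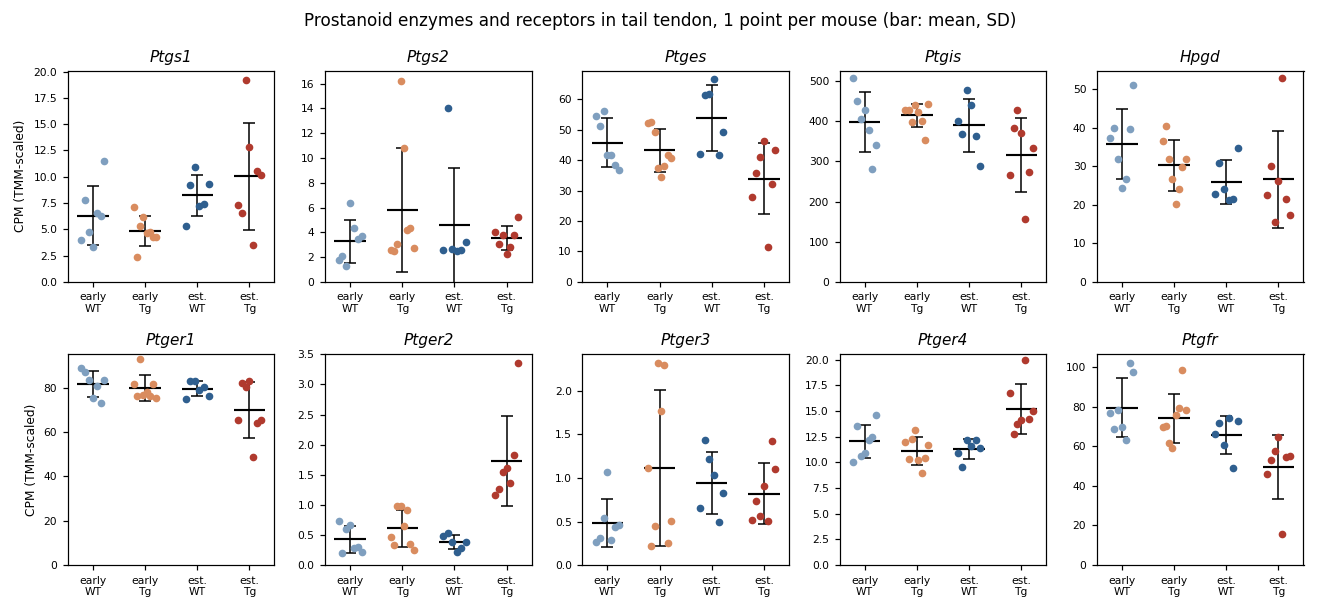
CPM after TMM scaling of each gene in each mouse (points), with group mean and SD (bars, drawn from 0 upward), in early and established WT and Fosl2(Tg) mice. Established Fosl2(Tg) mice lie above every established WT mouse for Ptger2 (1.16 to 3.35 against 0.209 to 0.5261) and Ptger4 (12.8 to 19.99 against 9.58 to 12.1). Single mice set much of the spread of Ptgs2, Hpgd, Ptgfr and Ptger2, the last through established Fosl2(Tg) replicate 7 at 3.35.

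Ptger2 (ENSMUSG00000037759, chr14:45225652-45241277, + strand) encodes EP2, and Ptger4 (ENSMUSG00000039942, chr15:5236142-5273673, - strand) encodes EP4. Both couple to Gs, and both were higher in established Fosl2(Tg) mice, so the 250 bases before the start of their canonical transcripts are shown, read from the GRCm39 genome 5′ to 3′ at chr14:45225402-45225651 (+ strand) and chr15:5273654-5273903 (- strand).
Ptger2: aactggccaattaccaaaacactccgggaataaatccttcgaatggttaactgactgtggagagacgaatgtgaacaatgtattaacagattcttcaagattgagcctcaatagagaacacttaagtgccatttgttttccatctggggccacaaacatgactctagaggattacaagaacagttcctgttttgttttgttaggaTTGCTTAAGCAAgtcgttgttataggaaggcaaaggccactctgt
Ptger4: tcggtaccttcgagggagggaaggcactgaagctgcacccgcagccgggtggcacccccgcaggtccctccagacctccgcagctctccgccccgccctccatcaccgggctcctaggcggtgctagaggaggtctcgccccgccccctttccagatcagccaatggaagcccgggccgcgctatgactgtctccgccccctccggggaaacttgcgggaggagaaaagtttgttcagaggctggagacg
The capitals mark matches to the C/EBP letters TTNNGCAA, searched on both strands; 2 matches overlap there, starting 45 and 41 bases before the transcript start. The windows differ in base composition, with 40.4% G and C for Ptger2 and 67.2% for Ptger4.

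Letters of factors were searched on both strands of the 300 bases from 250 before to 50 after the start in 21571 protein-coding promoters. The AP-1 letters TGANTCA, which the family of the transgene binds, were in 0 of 10 members and in 7.15% of all promoters. The cyclic AMP response element TGACGTCA was in 0 of 10 members and 2.45% of all. C/EBP, NF-kB (GGGNN followed directly by TTNCC) and the short form TGACG of the response element were added after those gave no match. C/EBP letters were in Ptger2 alone (10.7% of all promoters), NF-kB letters in Ptgs2 and Ptger1 (5.01%), and the short form, whose letters the full element also contains, in Ptgs2 and Ptgis (22.6%).

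Ptger2 was counted in every mouse, but thinly, with 2 to 88 reads. Its CPM was 0.209, 0.382 and 0.5261 as lowest, median and highest in established WT mice, and 1.16, 1.54 and 3.35 in established Fosl2(Tg) mice. The lowest Fosl2(Tg) mouse was above the highest WT mouse, and both early groups (0.208 to 0.733 in WT and 0.250 to 0.984 in Fosl2(Tg)) lay below the established Fosl2(Tg) range. The log2 fold change was 2.23 ± 0.31, a 4.69-fold difference. Replicate 7 of the Fosl2(Tg) mice was the highest, and without it the log2 fold change was 1.98 ± 0.24. Among females alone it was 2.21 ± 0.35, and with a skeletal muscle score as covariate 2.28 ± 0.31. The long noncoding genes Gm49364 and Gm17173 on the opposite strand share 331 and 509 bases with Ptger2 exons and have no row of their own in the tables.

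Ptger4 was 9.58, 11.5 and 12.1 CPM as lowest, median and highest in established WT mice, and 12.8, 14.2 and 19.99 in established Fosl2(Tg) mice. The groups did not overlap, though the gap between 12.1 and 12.8 was small. The log2 fold change was 0.44 ± 0.11, a 1.35-fold difference, and 0.36 ± 0.09 without Fosl2(Tg) replicate 5, the highest. Over 25 ways of fitting the cohort it lay between 0.32 and 0.77. Per kb of exon, Ptger2 stood at a median of 4.17% of Ptger4 in established WT mice (2.32% to 7.04%) and at 14.4% in established Fosl2(Tg) mice (8.79% to 28.5%). This ratio within a library does not depend on the scaling. On the opposite strand, Ptger4 exons share 229 bases with Ttc33 and 1015 bases with the pseudogene Gm15937, which has no row of its own in the tables.

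The established contrast chose the members, so its counts are set beside the background and nothing is read from them. Past an FDR of 0.05 in the whole-table fit were 2 of 10 members, Ptger2 and Ptger4, beside 6.51% of 15862 genes (3.14% higher in Fosl2(Tg)). Ptger4 was not among them with the replicate number as a block or without any 1 of 6 mice, which left it in 18 of 25 fits, and Ptges was among them in 4 of 25. Likewise, 2 of 10 members were higher without overlap beside 1.48% of genes (3.81% in either direction). Members were lower in 6 of 10 cases, with a median log2 fold change of -0.20 against 0.01 over all genes tested.

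Ptger1 encodes EP1 (chr8:84393264-84399384, + strand). Established WT mice had 75.0, 79.6 and 83.2 CPM as lowest, median and highest, and established Fosl2(Tg) mice 48.6, 65.5 and 83.0, with a log2 fold change of -0.18 ± 0.11. The strand setting of the counting is not given in the sources used here, and its place near the top of the receptors is uncertain.

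Ptger3 encodes EP3 (chr3:157272492-157352099, + strand) and was as sparse as Ptger2, with 2 to 74 counts. Established mice overlapped fully, at 0.495 to 1.44 CPM in WT and 0.505 to 1.42 in Fosl2(Tg), with a log2 fold change of -0.21 ± 0.30. The early WT mice ran from 0.266 to 1.07 (median 0.439) and the early Fosl2(Tg) mice from 0.223 to 2.32 (median 0.805).

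Ptgfr encodes FP, the receptor of prostaglandin F2α (chr3:151502139-151543267, - strand). Established WT mice had 49.0, 69.1 and 74.2 CPM as lowest, median and highest, and established Fosl2(Tg) mice 15.7, 54.6 and 64.7. The log2 fold change was -0.41 ± 0.23. Fosl2(Tg) replicate 5 was far below its group, whose other mice lay between 45.9 and 64.7, and without it the value was -0.25 ± 0.11.

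Fosl2(Tg) replicate 5, the only male of its group, was lowest in 6 and highest in 2 of the 10 members. Its 10 tendon fibroblast markers summed to 7228 CPM, the lowest of the group (median 32811), and its 8 skeletal muscle markers to 5134, the highest (median 355). In replicate 7, highest for Ptger2, the macrophage markers (1568 CPM, median 1179), the endothelial markers (63.9, median 33.9) and the smooth muscle and pericyte markers (127, median 45.1) were also the highest of the group. Across the established cohort, 4 of 10 tendon fibroblast markers were lower in Fosl2(Tg) and their sum ranged from 101556 to 192242 CPM in WT and from 7228 to 81160 in Fosl2(Tg). Of 10 macrophage markers, 1 was higher, and the sum ranged from 719 to 1237 in WT and from 905 to 1568 in Fosl2(Tg). None of the 8 skeletal muscle markers passed, at 52.4 to 15244 CPM in WT and 37.9 to 5134 in Fosl2(Tg). The 7 T cell markers summed to at most 1.81 CPM in any established mouse and the 8 neutrophil markers to at most 1.82 in WT and 9.48 in Fosl2(Tg), and in these 5 lists no marker was at 0 in all mice. Of the other 8 marker lists, 1 of 8 smooth muscle and pericyte markers was lower, while no tested endothelial, Schwann cell, keratinocyte, erythroid, platelet, mast cell or adipocyte marker passed, and the mast cell marker Fcer1a was at 0 in every mouse. In the early cohort no tested marker passed, and the T cell, adipocyte and neutrophil lists had no marker with enough counts to be tested. The part of other cell types in the receptor differences was not tested beyond the muscle score given above.

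**Figure D3:**
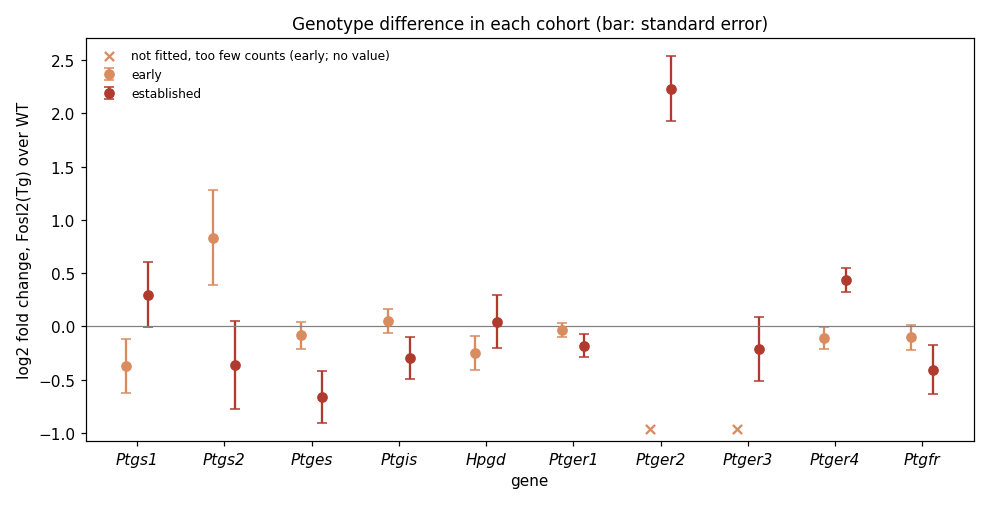
Log2 fold change of Fosl2(Tg) over WT for each gene in the early and established cohorts, with standard errors as bars. Ptger2 is at 2.23 and Ptger4 at 0.44 in the established cohort, which chose the members. Crosses at the foot mark the 2 receptors not fitted in the early cohort, and carry no value.

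The early cohort, which did not choose the members, asked whether the genotypes already differed at 6 to 8 weeks. Ptger2 and Ptger3 had too few counts to enter the test, and the other 8 members were tested with 0 passing (edgeR quasi-likelihood, Benjamini-Hochberg FDR from 0.834 to 0.955). The background was low, with 6 of 15138 genes past the threshold, or 0.0396%, and 0 of 10 members without overlap beside 0.0528% of genes. In this fit and in limma voom no tested member had an unadjusted p under 0.05, and DESeq2, which kept all 10, had 2, with none past an FDR of 0.05. Among the other edgeR fits 1 member had such a p without the filter on low counts and in the fit of all 28 libraries (Ptger3), without the TMM factors (Hpgd) and with the replicate number as a block (Ptgs2), again with none past the FDR threshold. Ptgs2 had the lowest p, with a log2 fold change of 0.83 ± 0.45 (FDR = 0.834). With the block its FDR was 0.197 (log2 fold change 0.77 ± 0.19), while the whole table went from 6 to 11 genes past the threshold. Ptger4, higher in the established cohort, was at -0.11 ± 0.10 here (FDR = 0.906), with 9.99 to 14.6 CPM in WT and 8.92 to 13.1 in Fosl2(Tg). Fitted without the filter on low counts, Ptger2 was at 0.57 ± 0.37 (FDR = 0.807) and Ptger3 at 1.24 ± 0.49 (FDR = 0.799). Early Fosl2(Tg) mice were split for Ptger3, as replicates 1, 4, 5 and 6 had 1.11 to 2.32 CPM and the other 4 at most 0.501.

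Established and early WT mice were compared to see how the members stood in tendon without the transgene. Of 10 members, 0 passed (edgeR, FDR from 0.202 to 0.931), beside 5.81% of 16082 genes. Ptger3 and Hpgd had unadjusted p under 0.05, as 2 members did with DESeq2, which called 0 too. Ptger3 was higher in established WT by 0.97 ± 0.45 (FDR = 0.202) and Hpgd differed by -0.47 ± 0.22 (FDR = 0.207). Ptger2 differed by -0.18 ± 0.37 and Ptger4 by -0.09 ± 0.11. Among Fosl2(Tg) mice the same stage difference is given as a description, because the established mice chose the members. It was 1.47 ± 0.31 for Ptger2, 0.45 ± 0.10 for Ptger4, 1.05 ± 0.28 for Ptgs1, -0.39 ± 0.15 for Ptgis and -0.58 ± 0.18 for Ptgfr. These were the 5 of 10 members past an FDR of 0.05, beside 7685 of 16082 genes. The others were Ptgs2 (-0.71 ± 0.44), Ptger3 (-0.48 ± 0.41), Ptges (-0.34 ± 0.19), Ptger1 (-0.19 ± 0.08) and Hpgd (-0.18 ± 0.21). Both stage differences also compare males with mostly females.

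The 3 genes most like Ptger2 in how single mice deviated from their own group mean, by Spearman's rho of log2 CPM over 28 mice and among 16082 genes, were Kcnj15, an inwardly rectifying potassium channel (rho = 0.785), Gpr176, an orphan receptor (0.749), and Orai2, a calcium channel subunit (0.727). These are the top of a long ranking over low counts that share libraries and depth, and are a description. By group mean, Kcnj15 was, like Ptger2, lowest in established WT (0.914 CPM) and highest in established Fosl2(Tg) mice (2.84), with 1.12 and 2.27 in early WT and Fosl2(Tg). Orai2 had the same lowest and highest group, within a narrower range (3.61 to 4.57 CPM). Gpr176 did not, at 1.86 CPM in early WT, 5.21 in established WT and 4.95 in established Fosl2(Tg) mice. Ptger4 went the other way from Ptger2 within groups (rho = -0.376), and Ptger3 was the member closest to it (0.490).

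The rest of the prostanoid pathway was described by 24 further genes for arachidonate release, other synthases, transport and other receptors. Of 21 tested in the established cohort, 0 were higher and 1 lower in Fosl2(Tg), beside 6.51% of all genes called. Their median log2 fold change was -0.07. The gene that fell was Slco2a1, the transporter that takes prostaglandins into cells for inactivation. It ran from 82.2 to 118 CPM in WT (mean 98.9 ± 12.03) and from 54.4 to 88.9 in Fosl2(Tg) mice (68.5 ± 14.3), so the ranges shared 82.2 to 88.9 (log2 fold change -0.53 ± 0.13, FDR = 0.0319). Without the TMM factors the difference was -0.20 ± 0.13 (FDR = 0.203), and among females it was -0.50 ± 0.14 (FDR = 0.0638), so the call was lost in both. In WT mice it was higher at the established than at the early stage (0.48 ± 0.13, FDR = 0.0305). Pla2g5, a secreted phospholipase that frees fatty acids including arachidonate, ran from 142 to 204 CPM in established WT and from 25.7 to 147 in Fosl2(Tg) mice and missed the threshold there (-0.99 ± 0.28, FDR = 0.0526). Ptgir, the prostacyclin receptor and another Gs-coupled one, ran from 12.2 to 35.5 CPM in WT and from 22.7 to 56.8 in Fosl2(Tg) mice and did not pass (0.65 ± 0.24, FDR = 0.107). Ptgdr, which like Ptger2 is a Gs-coupled receptor, had too few counts to be tested.

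The leukotriene and lipoxygenase list had 11 genes, of which 9 were tested in the established cohort. Of these, 2 rose and 0 fell (median log2 fold change 0.34), beside 6.51% of all genes called. Alox5ap, the protein that presents arachidonate to 5-lipoxygenase, ran from 12.1 to 22.5 CPM in WT and from 21.2 to 34.8 in Fosl2(Tg) mice (0.62 ± 0.15, FDR = 0.0307). Lta4h, which makes leukotriene B4, ran from 34.8 to 40.2 in WT and from 39.8 to 55.7 in Fosl2(Tg) mice (0.34 ± 0.08, FDR = 0.0317). Among females Alox5ap was at 0.65 ± 0.17 (FDR = 0.0565) and Lta4h at 0.30 ± 0.08 (FDR = 0.0620), so both calls were lost. Alox5 itself did not pass (-0.09 ± 0.19, FDR = 0.789). Alox5ap is also a gene of macrophages, whose summed markers are given above.

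Genes that cyclic AMP can induce were followed because EP2 and EP4 raise it. Of 13 tested, 1 was higher and 0 lower in established Fosl2(Tg) mice, beside 6.51% of all genes called. Of the 13 values, 8 were positive (median 0.21 on the log2 scale). In the early cohort the median was 0.40 (-0.01 over all genes tested) with 12 of 13 positive and 0 called. In the established cohort Gem rose by 0.72 ± 0.17 (FDR = 0.0276), from 4.50 to 7.67 CPM in WT to 7.57 to 14.5 in Fosl2(Tg). Its call was lost among females (0.71 ± 0.19, FDR = 0.0596) and in the fit of all 28 libraries (0.71 ± 0.30, FDR = 0.116). In the main fit of the established cohort, a further 6 genes had an unadjusted p under 0.05 without passing. Of these, Per1 (0.66 ± 0.20, FDR = 0.0609), Sik1 (0.70 ± 0.21, FDR = 0.0628), Junb (0.57 ± 0.22, FDR = 0.116) and Dusp1 (0.43 ± 0.18, FDR = 0.154) had positive values. Nr4a3 (-1.06 ± 0.32, FDR = 0.0628) and Pde4b (-0.31 ± 0.10, FDR = 0.0783), a phosphodiesterase that breaks cyclic AMP down, had negative ones. Of 8 tested inflammatory inducers and mediators, 2 were higher and 0 lower in the established cohort, beside 6.51% of all genes called. Of the 8 values, 6 were positive (median 0.26). Cebpd, a C/EBP transcription factor, ran from 20.3 to 67.8 CPM in WT and from 59.0 to 139 in Fosl2(Tg) mice (1.33 ± 0.26, FDR = 0.0157). Tnfaip3, an inhibitor of NF-kB signalling, ran from 7.72 to 11.9 and from 12.5 to 19.3, without overlap (0.49 ± 0.13, FDR = 0.0422). Its call was lost among females (0.45 ± 0.12, FDR = 0.0620). It was also lost without the filter on low counts (FDR = 0.0581) and in the fit of all 28 libraries (FDR = 0.0755). Il1b and Il6 had too few counts to be tested, with group means of at most 0.424 and 0.128 CPM.

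**Figure D4:**
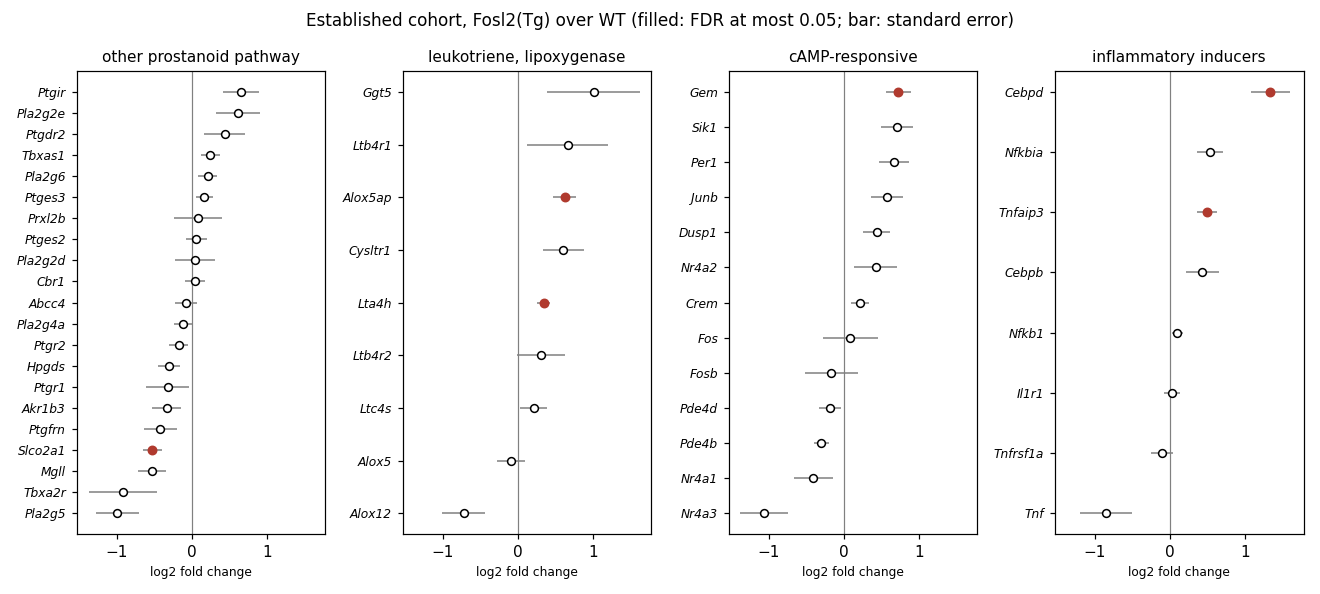
Log2 fold change (Fosl2(Tg) over WT, established cohort) of the tested genes of the 4 other lists, with standard errors as bars and filled points for an FDR of at most 0.05. Slco2a1 is the filled point below 0, and Alox5ap, Lta4h, Gem, Cebpd and Tnfaip3 are the filled points above 0.

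Over the 4 lists, 6 of 51 tested genes passed in the established cohort beside 6.51% of all genes, and 0 of 49 in the early cohort (edgeR, 8 with unadjusted p under 0.05, and 0 called by DESeq2 or limma voom). The 6 calls were not all firm, since leaving out 1 mouse gave between 1 and 8. Calls over the whole table varied in these fits too. They ran from 361 without WT replicate 1 to 1166 without Fosl2(Tg) replicate 7, against 1032 with all mice. Without WT replicate 1, WT replicate 4 or Fosl2(Tg) replicate 1 there was 1 call each, without WT replicate 2 there were 2, and without WT replicate 5 there were 3. Of the 25 fits tried, Cebpd was called in 25, Gem in 20, Alox5ap in 18, Slco2a1 and Lta4h in 17 each and Tnfaip3 in 11.

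Whether the genotype difference itself changed between the stages was tested for the 4 lists by the interaction of genotype and cohort over all 28 mice. Of 51 genes tested, 3 had a more positive and 2 a more negative difference in the established cohort, beside 7.43% of 16082 genes. Alox5ap differed by 0.97 ± 0.22 (FDR = 0.0121), Cysltr1, a cysteinyl leukotriene receptor, by 1.13 ± 0.33 (FDR = 0.0375) and Lta4h by 0.33 ± 0.09 (FDR = 0.0340). In early mice, Alox5ap ran from 14.7 to 35.0 CPM in WT and from 16.3 to 24.1 in Fosl2(Tg). Early Cysltr1 ran from 3.40 to 6.97 in WT and from 2.53 to 5.01 in Fosl2(Tg), and Cysltr1 did not pass in the established cohort. Pla2g5 differed by -1.17 ± 0.29 (FDR = 0.0185), as it was 293 ± 27.1 CPM in early WT and 331 ± 40.0 in early Fosl2(Tg) mice against 184 ± 22.6 and 92.4 ± 40.5 in established mice. Slco2a1 differed by -0.62 ± 0.18 (FDR = 0.0370), and by -0.12 ± 0.21 without the TMM factors (FDR = 0.648). In WT mice alone, Slco2a1 was higher and Alox5ap (-0.55 ± 0.16, FDR = 0.0451), Hpgds, a prostaglandin D synthase (-0.68 ± 0.19, FDR = 0.0370), and Pla2g2e, a secreted phospholipase (-1.12 ± 0.28, FDR = 0.0163), were lower at the established stage. Of these, Alox5ap (-0.35, FDR = 0.217) and Hpgds (-0.48, FDR = 0.112) did not pass without the TMM factors. Leaving out 1 mouse lost Alox5ap in 9 of 13 fits, Hpgds in 8, Slco2a1 in 6 and Pla2g2e in 1. These stage differences also compare males with mostly females.

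**Figure D5:**
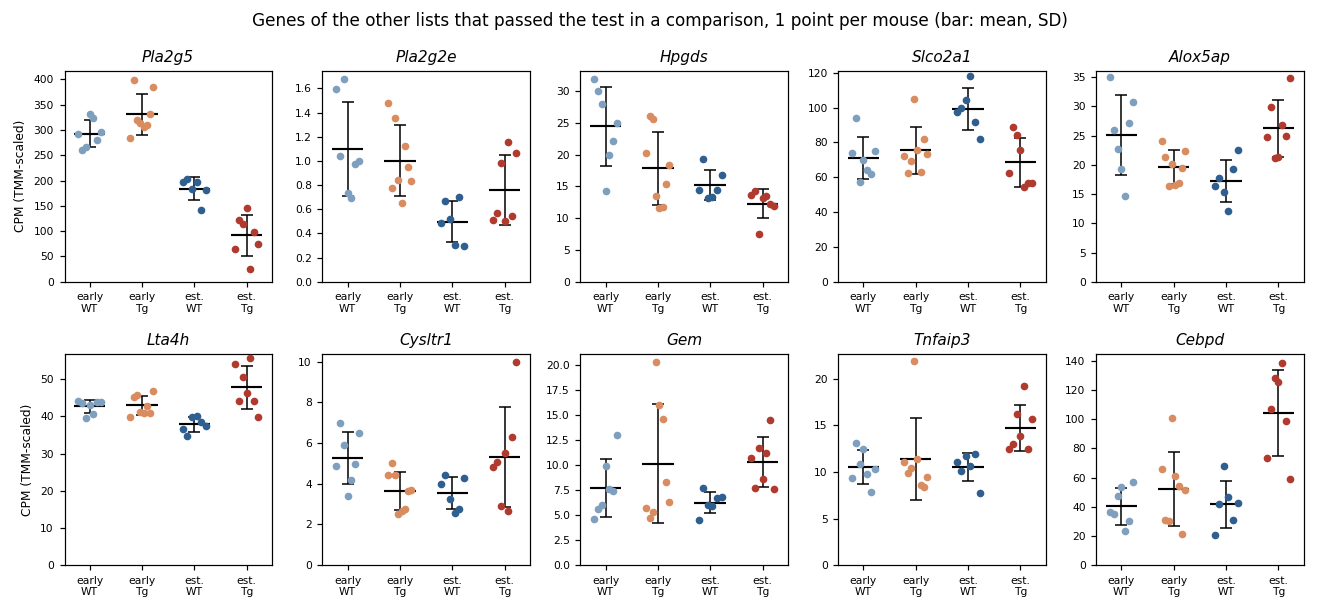
CPM after TMM scaling by mouse for the 10 genes of the other lists that passed the test in a comparison, with group mean and SD. Slco2a1 is lower in established Fosl2(Tg) mice (54.4 to 88.9) than in established WT mice (82.2 to 118), whereas Cebpd is higher (59.0 to 139 against 20.3 to 67.8).

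The sign of small differences depended on the scaling. TMM factors had medians of 1.07 in established WT and 1.33 in established Fosl2(Tg) mice, and without them the median of all genes moved from 0.01 to 0.33 on the log2 scale and the calls from 498 higher and 534 lower to 7236 and 308. In the early cohort without factors it was at -0.19, with 0 higher and 5 lower in place of 1 and 5. For the interaction 551 more positive and 644 more negative became 7837 and 254, and for established against early WT mice 375 higher and 560 lower became 2162 and 212. Ptger2 (2.55) and Ptger4 (0.77) stayed positive and Ptges (-0.35) and Ptgfr (-0.10) negative without the factors, while Ptgis and Ptger1 turned to 0.01 and 0.14 and Ptger3 to 0.10.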

How the data were processed

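Tail tendon RNA of 28 mice was sequenced after removal of ribosomal RNA. Reads had been aligned by the authors to GRCm39 (GENCODE M26) using STAR, and featureCounts then gave the raw gene counts that were deposited without normalization. Strand setting and multi-mapping are not given in the sources used here, so overlapping genes are uncertain, and a result on such an overlap is not reported here. Of 25719 identifiers, 25505 were named with GENCODE M39 of the same assembly.

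Genes were filtered with filterByExpr (minimum count 10, minimum total 15), scaled with TMM and compared with the quasi-likelihood test of edgeR 4.0.16 in R 4.3.3, with Benjamini-Hochberg adjustment over all genes and a threshold at an FDR of 0.05. The genotypes were compared within each cohort without covariates, and a fit of all 4 groups gave the interaction and the stage difference in WT. CPM per mouse used TMM factors over 28 libraries, and log2 CPM a prior count of 2. The marker and gene lists, like the members, were chosen with earlier results of these data known. All members were named, and of the other lists the genes called in a comparison, up to 8 per list and comparison, and otherwise up to 3 of the most abundant, to which Alox5, Ptgir, Ptgdr, Per1, Sik1, Junb, Dusp1, Nr4a3, Pde4b, Il1b and Il6 were added after their values had been seen. Promoters were read from the GRCm39 genome at Ensembl canonical starts.

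Alternatives were DESeq2 1.42.0, which the authors used, RLE scaling, other filters, limma 3.58.1 voom with quality weights, a block for the replicate number, a skeletal muscle score or sex as covariate, females only, 1 fit of all libraries, each mouse left out, and, added after seeing the data, library totals without TMM factors. In the early cohort the deviations of same-numbered WT and Fosl2(Tg) mice correlated at 0.129 to 0.363 over 7 pairs, although none of the 7 WT mice correlated best with its own number, and in the established cohort the range was -0.223 to 0.688. The labels do not say what a number marks. No 2 libraries of a group were close enough to be a repeat deposit of the same library. The fits were also run on simulated data with a fixed spread for all genes, and the outcome is not given here. Library totals (9645598 to 66894396) limit Ptger2 and Ptger3 most. Figures were drawn with matplotlib 3.10.9. Protein sequences were not used here.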

Additional observations from a re-analysis of the deposited data

Results flagged for a closer look

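In groups of 6 to 8 mice, a mouse was singled out when its gap to the nearest other mouse, divided by the range of the group, passed the 95% critical value of Dixon's test, which chance alone passes in about 1 of 20 groups. Of 40 groups of values (10 genes in 4 groups), 6 held such a mouse. Ptgs2 was at 14.04 CPM in established WT replicate 2, against 2.51 to 3.22 in the other 5 mice. Ptger2 was at 3.35 in established Fosl2(Tg) replicate 7, against 1.16 to 1.83 in the others, all above the WT range. Fosl2(Tg) replicate 5 of the established cohort was singled out for both Hpgd, at 52.8 against 15.5 to 30.1, and Ptgfr, at 15.7 against 45.9 to 64.7. Ptger1 was at 93.0 in early Fosl2(Tg) replicate 3, against 75.6 to 81.6, and Ptger3 at 1.07 in early WT replicate 4, on 16 counts, against 0.266 to 0.541.

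The genotype difference of 5 genes of the other lists differed between the cohorts by the interaction test of edgeR over 28 mice (FDR from 0.0121 to 0.0375). As established minus early on the log2 scale, these were Pla2g5 at -1.17, Slco2a1 at -0.62, Alox5ap at 0.97, Lta4h at 0.33 and Cysltr1 at 1.13. The cohorts also differ in sex. Without the 2 established males, stage and sex coincide fully, so that fit cannot separate them. In it Slco2a1 (-0.60, FDR = 0.0653) and Lta4h (0.28, FDR = 0.0853) no longer passed. Calls over all genes went from 1195 to 725 in the same fit. Without the TMM factors Slco2a1 was at -0.12 (FDR = 0.648).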

How the results depend on the processing

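The number of members called stayed at 0 in the early cohort and in WT mice between stages under all alternatives run. In the established cohort, which chose the members and from whose calls nothing is read, 1 to 2 members were called when a mouse was left out, as Ptger4 (0.36 to 0.48) was lost without WT replicates 1, 2, 4, 5 or 6 or Fosl2(Tg) replicate 1. Calls over the whole table fell in the same fits, from 1032 to between 361 and 559. With the replicate block Ptger4 was lost and Ptges gained, and with the muscle score, with sex as covariate and in the fit of all 28 libraries Ptges was called beside Ptger2 and Ptger4, which made 3. For the other 4 lists in the established cohort, the 6 calls became 13 with DESeq2, 25 without TMM factors, 10 with limma voom, 11 with the replicate block and 2 among females, and 1 to 8 when a mouse was left out. The interaction gave 22 in place of 5 without TMM factors. Between stages in WT, the 4 calls became 8 with DESeq2 and 0 to 6 when a mouse was left out (0 without established WT replicate 4, 1 without established WT replicate 3 or early WT replicate 6, 2 without established WT replicate 1 or early WT replicate 7). The cause of these shifts was not tested beyond the shift in scale given for the TMM factors. With the longest transcript, 6 of 10 members kept their rank.

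Among the tested members, the sign changed for values that passed in no fit. In the early cohort, Ptges (0.011) and Ptger1 (0.021) turned with the muscle score, and Ptgis turned without TMM factors (-0.11), with limma voom (-0.0328) and over the mice left out (-0.017 to 0.13). Between stages in WT, Ptgis (0.20), Ptger1 (0.18), Ptger2 (0.042) and Ptger4 (0.12) turned without TMM factors, and, with mice left out, Ptgs2 ran from -0.30 to 0.70 and Ptgis from -0.10 to 0.041. In the established cohort, the deviations of same-numbered mice correlated at 0.296 to 0.688 in 4 of 6 pairs and at 0.0568 and -0.223 in the others, and 2 of 6 WT mice correlated best with their own number. The block changed no other call of a member.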
